A study of Mus musculus with 6 samples.

Results

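The genes described here are 5 transcripts of neutrophil precursors, Mpo, Elane, Prtn3, Ctsg and Ms4a3, found by their symbols among 24956 gene rows of a count table from sorted mouse microglia. They were picked because of their measured levels in the anti-NK1.1 and isotype libraries of these same data, so the difference between the groups is given for them as a description, without a test. The samples were bulk RNA of microglia isolated by cell sorting from 3xTg-AD mice, a model of Alzheimer's disease, aged 7 months. In 3 libraries the mice had received 25 µg of an anti-NK1.1 antibody, which depletes natural killer (NK) cells, every 4 days for 4 weeks, and in the other 3 libraries an isotype control antibody on the same schedule. All mice of both groups carried the 3xTg-AD alleles, which include human APP and MAPT transgenes driven in neurons by a Thy1 promoter, so every value below comes from a disease model and no library from a mouse without these alleles was analysed here. The labels do not say whether a library came from 1 mouse or from several.

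Neutrophils mature in the bone marrow and fill their granules in waves. Azurophil (primary) granules are filled first, at the promyelocyte stage, with myeloperoxidase and serine proteases, and transcription of these genes ends before specific and gelatinase granules are made. Circulating neutrophils therefore carry the azurophil proteins but little of their mRNA, while S100a8 and S100a9 transcripts stay abundant. Microglia are brain macrophages and are not known as a source of these transcripts.

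Mpo (chromosome 11, 87793581 to 87804413, plus strand, GRCm38) encodes myeloperoxidase, which makes hypochlorous acid. Elane (chromosome 10, 79886247 to 79888215, plus strand) encodes neutrophil elastase and Prtn3 (chromosome 10, 79874476 to 79883174, plus strand) encodes proteinase 3. Both are serine proteases, and the annotated genes lie 3.07 kb apart. Ctsg (chromosome 14, 56099881 to 56102574, minus strand) encodes the serine protease cathepsin G, and Ms4a3 (chromosome 19, 11629496 to 11640851, minus strand) encodes a membrane protein that marks granulocyte-monocyte progenitors and is used to trace their progeny. These are spans of protein-coding genes in GENCODE M21, and the deposited counts are per gene.

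The 5 promoters are shown because the genes share a pattern across the libraries and 1 stage of differentiation. Each sequence runs 5′ to 3′ on the gene's own strand, from 250 bases before to 50 bases after the start, and was taken from RefSeq on GRCm38.p6. The windows are chr11:87793534-87793833 for Mpo, chr10:79886062-79886361 for Elane, chr10:79879417-79879716 for Prtn3, chr14:56102525-56102824 for Ctsg and chr19:11640802-11641101 for Ms4a3. The RefSeq starts of Mpo, Elane and Prtn3 lie inside their longer GENCODE spans. Capitals mark GGAAGT, the core bound by ETS factors such as PU.1, CAACNG, a core bound by MYB, and TTGCNNAA, a C/EBP motif, each on either strand.
Mpo: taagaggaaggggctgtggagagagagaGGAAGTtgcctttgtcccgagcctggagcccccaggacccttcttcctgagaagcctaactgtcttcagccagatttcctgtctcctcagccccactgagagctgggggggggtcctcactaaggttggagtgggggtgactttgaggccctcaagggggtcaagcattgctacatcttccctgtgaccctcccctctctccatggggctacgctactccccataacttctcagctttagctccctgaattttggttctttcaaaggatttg
Elane: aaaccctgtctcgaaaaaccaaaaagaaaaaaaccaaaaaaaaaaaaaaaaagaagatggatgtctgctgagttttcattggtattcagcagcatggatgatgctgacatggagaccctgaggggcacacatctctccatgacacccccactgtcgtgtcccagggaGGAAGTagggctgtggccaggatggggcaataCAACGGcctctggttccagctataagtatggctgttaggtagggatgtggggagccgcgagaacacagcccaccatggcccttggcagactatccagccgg
Prtn3: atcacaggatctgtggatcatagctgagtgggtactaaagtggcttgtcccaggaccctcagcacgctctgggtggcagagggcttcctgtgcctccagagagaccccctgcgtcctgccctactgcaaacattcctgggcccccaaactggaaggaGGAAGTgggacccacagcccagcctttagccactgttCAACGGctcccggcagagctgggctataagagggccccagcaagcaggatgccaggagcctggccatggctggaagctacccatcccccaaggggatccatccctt
Ctsg: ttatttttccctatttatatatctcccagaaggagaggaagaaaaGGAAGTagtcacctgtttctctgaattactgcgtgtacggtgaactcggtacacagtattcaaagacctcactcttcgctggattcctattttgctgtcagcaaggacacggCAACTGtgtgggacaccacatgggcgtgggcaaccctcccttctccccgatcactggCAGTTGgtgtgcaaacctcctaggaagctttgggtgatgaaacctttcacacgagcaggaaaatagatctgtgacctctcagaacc
Ms4a3: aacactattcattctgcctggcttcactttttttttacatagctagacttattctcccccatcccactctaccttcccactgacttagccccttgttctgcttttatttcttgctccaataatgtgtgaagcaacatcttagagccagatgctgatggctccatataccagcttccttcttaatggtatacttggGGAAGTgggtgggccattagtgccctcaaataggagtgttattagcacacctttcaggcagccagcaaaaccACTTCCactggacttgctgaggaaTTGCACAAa

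GGAAGT was present in all 5 promoters, against 23.8% of 32851 promoter windows of the same length. Its longer form AGGAAGT, which contains it, was present in 4 of them, Mpo, Elane, Prtn3 and Ctsg, against 9.35% of all windows. In Elane and Prtn3 the ETS core began 83 and 93 bases before the start, CAACNG 51 and 56 bases before it, and the TATA box letters TATAAG 31 and 32 bases before it, so the neighbouring genes share the same order of matches. CAACNG was also found at 2 places in Ctsg, against 35.0% of all windows with at least 1 match, and TTGCNNAA was found in Ms4a3 alone (10.8% of all windows). The RUNX motif TGTGGT occurred once, in Ctsg (16.8% of all windows), and TATAAG in 7.43% of all windows. These motifs were chosen after the sequences were seen, and a match is only a match of letters.

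Gene counts totalled 26893620 to 31353937 in the anti-NK1.1 libraries and 31884697 to 36098252 in the isotype libraries. The microglial marker P2ry12, a purinergic receptor, was abundant throughout and ranged over 2683 to 4384 CPM in anti-NK1.1 libraries, against 4557 to 5058 CPM in isotype libraries. CPM are counts per 1e6 after scaling by edgeR's TMM (trimmed mean of M values) factors. Klrb1c, which encodes NK1.1, had 0, 0 and 13 counts in anti-NK1.1 libraries and 50, 45 and 80 counts in isotype libraries. Long transcripts were relatively scarce in anti-NK1.1 1 and 3: across genes, relative expression had a Spearman correlation with exonic length of -0.18, 0.24 and -0.33 in anti-NK1.1 libraries 1 to 3, against 0.01, 0.04 and 0.33 in isotype libraries 1 to 3. Neutrophil transcripts were counted in every library, and fewer cells of a type and less RNA per cell cannot be told apart in bulk RNA.

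Azurophil transcripts took a smaller share of gene counts in each of the 3 anti-NK1.1 libraries than in any isotype one. Together the 5 genes made up 0.00401%, 0.0578% and 0.109% of gene counts in anti-NK1.1 libraries 1 to 3 and 0.197%, 0.233% and 0.177% in isotype libraries 1 to 3. The group means were 0.0568% ± 0.0523 for anti-NK1.1 and 0.202% ± 0.0287 for isotype (SD, n = 3 each), and the mean for anti-NK1.1 was 0.281 times that for isotype. Without anti-NK1.1 1 the ratio was 0.411, and without anti-NK1.1 3 it was 0.153. The 95% Wilson interval that was widest relative to its value, that of anti-NK1.1 1, ran from 0.00378% to 0.00425%, so counting error was small beside the spread between libraries. The kits add no molecular identifiers, and such intervals cover counting error alone.

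Mpo was the most abundant of the 5 by counts in every library except anti-NK1.1 1, where Elane had more. It had 314, 8124 and 12213 counts in anti-NK1.1 libraries 1 to 3 and 30456, 37262 and 36121 counts in isotype libraries 1 to 3. Scaled, these were 11.8, 237 and 487 CPM in anti-NK1.1 libraries, against 850, 1155 and 944 CPM in isotype libraries. The groups did not overlap, and the lowest library was anti-NK1.1 1, at 1.20% of the isotype mean. The group means were 245 ± 238 CPM for anti-NK1.1 and 983 ± 157 CPM for isotype (SD, n = 3 each), and the edgeR log2 change was -2.003 ± 0.89 (SE).

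Elane was at 16.7, 185 and 455 CPM in anti-NK1.1 libraries 1 to 3, against 667, 693 and 417 CPM in isotype libraries 1 to 3. Anti-NK1.1 3 lay above isotype 3 on this scale, so the groups overlapped. Its log2 change was -1.44 ± 0.82. Prtn3 had 7.79, 54.1 and 171 CPM in anti-NK1.1 libraries, against 247, 215 and 159 CPM in isotype libraries, with the same overlap and a log2 change of -1.42 ± 0.78.

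Ctsg, the least abundant of the proteases, had 1.02, 20.4 and 66.5 CPM in anti-NK1.1 libraries, against 123, 148 and 69.4 CPM in isotype libraries. The groups did not overlap, although anti-NK1.1 3 and isotype 3 lay close together. In anti-NK1.1 1 it had 27 counts (95% exact Poisson interval 17.8 to 39.3), and its log2 change was -1.95 ± 0.98. Ms4a3, the only one of the 5 that is not granule cargo, had 3.27, 33.0 and 80.0 CPM in anti-NK1.1 libraries, against 100, 95.3 and 70.6 CPM in isotype libraries. Anti-NK1.1 3 again lay above isotype 3, and the log2 change was -1.20 ± 0.79.

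**Figure D1:**
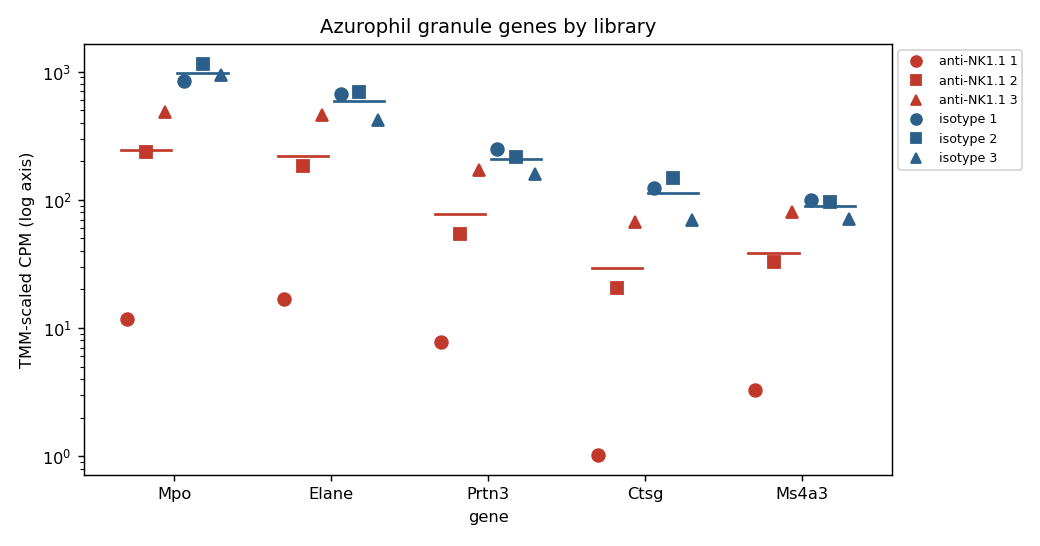
TMM-scaled CPM (log axis) of the 5 azurophil genes in each library, with anti-NK1.1 in red left of isotype in blue and a bar at each group's mean. Anti-NK1.1 1 is the lowest library for every gene, at 11.8 CPM for Mpo and 1.02 CPM for Ctsg, and anti-NK1.1 3 reaches the isotype range for Elane, Prtn3 and Ms4a3.

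The scale decides how many of the 5 genes separated the groups. As a share of all gene counts, none of the 5 reached its lowest isotype value in any anti-NK1.1 library, a separation found for 7.31% of the 14520 tested genes. On the TMM scale this held for Mpo and Ctsg only, and for 7.59% of tested genes. The TMM factor of anti-NK1.1 3 was 0.863, the lowest of the 6, which raises its CPM. Single libraries moved the log2 changes, by more than 1.5 times for every gene of the 5 except Mpo. Without anti-NK1.1 3 they were -2.98 for Mpo, -2.56 for Elane, -2.74 for Prtn3, -3.40 for Ctsg and -2.29 for Ms4a3, and without anti-NK1.1 1 they were -1.44, -0.89, -0.88, -1.39 and -0.65 in the same order of genes.

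Per kilobase of exon, Elane was the highest and Ms4a3 the lowest of the 5 in isotype libraries. Means per kilobase were 222 ± 225 CPM for Elane, 71.6 ± 69.4 CPM for Mpo, 44.8 ± 48.5 CPM for Prtn3, 28.4 ± 32.6 CPM for Ctsg and 20.6 ± 20.5 CPM for Ms4a3 in anti-NK1.1 libraries. They were 602 ± 155, 287 ± 45.7, 119 ± 25.6, 110 ± 39.0 and 47.1 ± 8.45 CPM per kilobase in isotype libraries, in the same order of genes (SD, n = 3 each). In the isotype libraries Prtn3 and Ctsg did not differ beyond their spread, while the steps from Elane to Mpo and from Mpo to Prtn3 were larger than it. In the anti-NK1.1 libraries the SD was about as large as each mean, so no order beyond the spread can be read there.

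The mixture within the 5 genes also varied. Mpo made up 29.1%, 44.8% and 38.7% of their summed counts in anti-NK1.1 libraries 1 to 3 and 42.8%, 50.1% and 56.8% in isotype libraries 1 to 3. Counts of Mpo over those of Elane were 0.709, 1.28 and 1.07 in anti-NK1.1 libraries and 1.27, 1.67 and 2.26 in isotype libraries. The lowest ratios were in anti-NK1.1 1 and 3, with their negative correlations with length, and the highest was in isotype 3, with a correlation of 0.33. Mpo has the longest exonic length of the 5 (3424 bases) and Elane the shortest (984 bases), and the part of length in this ratio was not tested. With each library's trend on transcript length removed, the log2 changes of Mpo, Elane, Prtn3, Ctsg and Ms4a3 were -2.02, -1.68, -1.67, -2.21 and -1.41, at least as large in size as without the correction.

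S100a8 and S100a9 transcripts did not follow the azurophil genes from library to library. S100a8 and S100a9, which encode the subunits of calprotectin, together took 2.25%, 2.25% and 7.74% of gene counts in anti-NK1.1 libraries 1 to 3 and 6.82%, 4.99% and 4.89% in isotype libraries 1 to 3. Anti-NK1.1 3 thus had the highest share of S100a8 and S100a9 of all 6 libraries but a smaller share of azurophil transcripts than any isotype library. For every 1000 counts of S100a8 and S100a9 there were 1.78, 25.7 and 14.03 azurophil counts in anti-NK1.1 libraries 1 to 3 and 28.9, 46.8 and 36.1 in isotype libraries 1 to 3. This ratio needs no scaling between libraries, but it is not corrected for transcript length. On it the groups did not overlap, with anti-NK1.1 2 close to isotype 1. With each library's trend on length removed, the log2 change of S100a8 went from -0.27 to -0.58. That of S100a9 went from -0.34 to -0.64, and the part of length in the ratio was not tested. Against every 1000 counts of Ltf, Camp and Ngp, which encode proteins of specific granules, the azurophil counts were 6.42, 59.2 and 32.3 in anti-NK1.1 libraries and 83.9, 104 and 88.8 in isotype libraries.

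**Figure D2:**
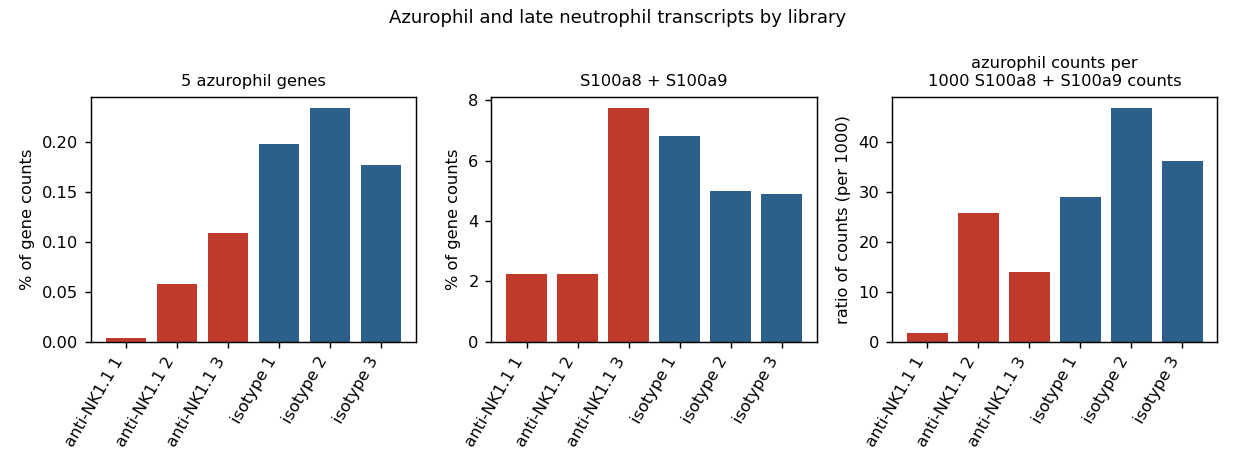
Bars per library, anti-NK1.1 in red and isotype in blue, for the summed share of the 5 azurophil genes (left), the summed share of S100a8 and S100a9 (middle) and azurophil counts per 1000 counts of S100a8 and S100a9 (right). Anti-NK1.1 1 and 2 have the same 2.25% of S100a8 and S100a9 but 0.00401% and 0.0578% of azurophil transcripts.

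A wide contrast also lay within the anti-NK1.1 group. Libraries 1 and 2 of that group had nearly the same share of S100a8 and S100a9, while the azurophil share was 14.4 times as high in anti-NK1.1 2 as in anti-NK1.1 1. By gene, anti-NK1.1 1 had 0.0451 times the Mpo share of anti-NK1.1 2 (95% exact counting interval 0.0401 to 0.0504). The value was 0.0451 for Ctsg (0.0295 to 0.0662), 0.0816 for Elane (0.0739 to 0.0899), 0.0898 for Ms4a3 (0.0714 to 0.112) and 0.130 for Prtn3 (0.112 to 0.151). Both are single libraries, so the intervals compare these libraries and not conditions.

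Most genes of later granules had higher ratios in the same pair of libraries, with 1 exception. Itgb2l, an integrin gene in the specific and gelatinase granule list, had 0 counts in anti-NK1.1 1 and 163 in anti-NK1.1 2, with an upper interval end of 0.0267, below the ratio of every azurophil gene. The other 13 genes of that list ranged from 0.217 for Olfm4 to 1.06 for Hp, and the median over all 14 was 0.492. Ltf (lactoferrin) stood at 0.334, Ngp at 0.693, Camp (the cathelicidin precursor) at 0.724 and Lcn2 (lipocalin 2) at 0.959. Over 14 mature neutrophil genes, of which Mmp9 also stands in the granule list, the median was 0.944 and the range 0.625 to 1.73. In the other pair, anti-NK1.1 3 over anti-NK1.1 2, the azurophil genes had 1.62 to 2.58 times the share (median 1.94). The specific and gelatinase granule genes had 0.562 to 4.16 times (median 2.23) and the mature neutrophil genes 0.579 to 6.31 times (median 2.27), ranges that span that of the azurophil genes.

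**Figure D3:**
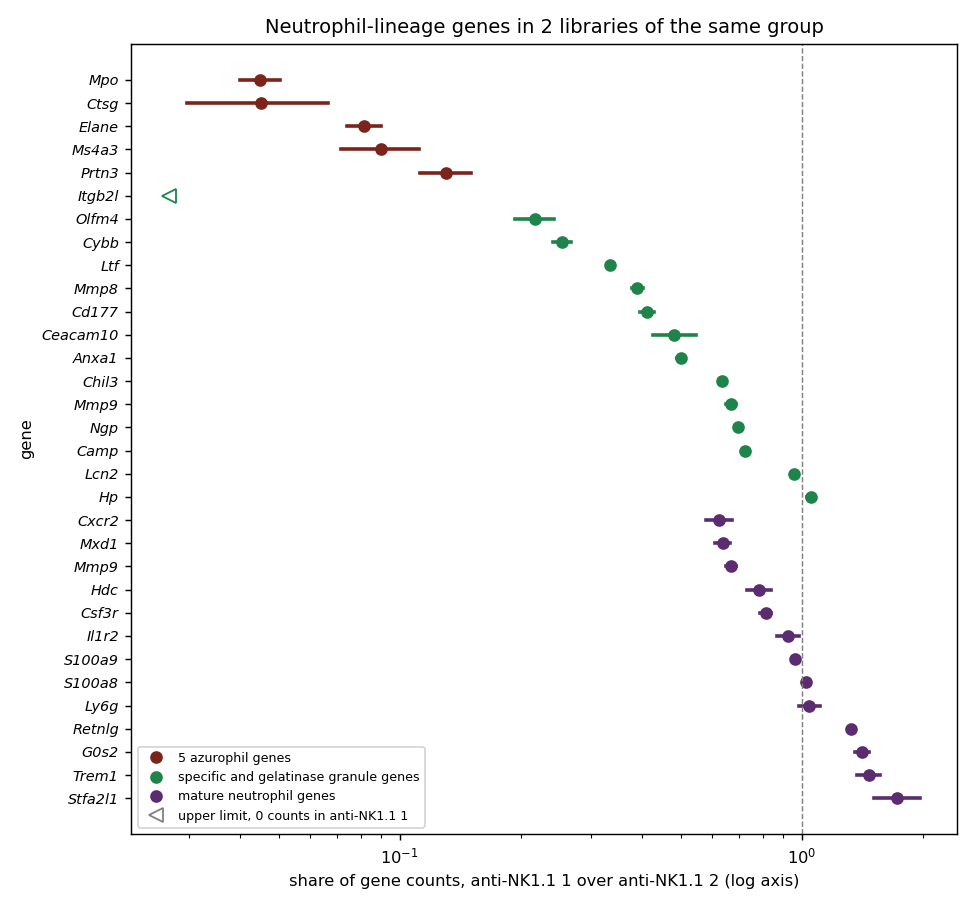
Ratio of a gene's share of gene counts in anti-NK1.1 1 to that in anti-NK1.1 2 (log axis), 1 gene per row, with 95% exact counting intervals as bars and an open triangle at the upper limit of Itgb2l, which had 0 counts in anti-NK1.1 1; 1 mature neutrophil gene is not drawn. The 5 azurophil genes lie at 0.0451 to 0.130, Itgb2l at or below 0.0267, the other 13 specific and gelatinase granule genes at 0.217 to 1.06 and the mature neutrophil genes at 0.625 to 1.73.

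Other cargo and sorting genes of azurophil granules were split in direction. Of 15 such genes, 14 were tested, 8 with a log2 change above 0 and 6 below, with a median of 0.03 beside 0.01 over all 14520 tested genes, of which 7394 lay above 0 and 7126 below. None passed edgeR's quasi-likelihood test after Benjamini-Hochberg adjustment over all genes, 2 had an unadjusted p under 0.05 and DESeq2 called none. Across all genes edgeR called 0 (0%), with 950 at an unadjusted p under 0.05, and DESeq2 called 83 (0.572%).

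Prss57, which encodes another azurophil serine protease, NSP4, was the cargo gene closest to the 5. It had 0.0376, 5.78 and 15.03 CPM in anti-NK1.1 libraries, against 31.8, 19.0 and 15.3 CPM in isotype libraries, which did not overlap. The value in anti-NK1.1 1 is 1 count, and the log2 change was -1.67 ± 1.14 (edgeR adjusted p = 0.758), or -1.09 without anti-NK1.1 1 and -2.91 without anti-NK1.1 3. Serpinb1a, a cytosolic inhibitor of elastase, proteinase 3 and cathepsin G, had 37.4, 101 and 288 CPM in anti-NK1.1 libraries, against 218, 226 and 176 CPM in isotype libraries, so that anti-NK1.1 3 was the highest of all. Cd63, a membrane protein of azurophil granules that macrophages also make, had a log2 change of 0.48 ± 0.25 (edgeR adjusted p = 0.743), or 0.29 without isotype 3. Ap3b1, a subunit of the adaptor complex needed to sort elastase, had -1.23 ± 0.34 (edgeR adjusted p = 0.727), and Lyz1, a lysozyme gene with the near-identical copy Lyz2, had 1.19 ± 0.53 (edgeR adjusted p = 0.743). Bpi was listed at 0 in every library.

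Transcription factors of granulocyte precursors differed in direction. Of 13, 12 were tested, 4 with a log2 change above 0 and 8 below, with a median of -0.27, and neither edgeR nor DESeq2 called any. Myb, a factor of cycling progenitors, had 0, 6.31 and 6.14 CPM in anti-NK1.1 libraries, against 9.96, 9.30 and 6.53 CPM in isotype libraries, so the groups did not overlap but lay close at their edges. Its log2 change was -1.05 ± 1.23 (edgeR adjusted p = 0.850), or -0.47 without anti-NK1.1 1. Gfi1, a repressor needed for neutrophil formation, had 0.978, 2.25 and 4.38 CPM in anti-NK1.1 libraries, against 5.41, 2.45 and 2.85 CPM in isotype libraries. Cebpe, which drives the step from promyelocyte to later granules, had 12.4, 14.5 and 52.5 CPM in anti-NK1.1 libraries, against 32.7, 36.8 and 27.3 CPM in isotype libraries, with anti-NK1.1 3 the highest of all. Cebpa and Cebpb, which microglia and other macrophages also express, had log2 changes of 0.69 ± 0.27 and 0.88 ± 0.42 (edgeR adjusted p = 0.727 and 0.743). Without anti-NK1.1 3 that of Cebpb was 0.16.

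Surface and secreted genes of myeloid precursors gave 6 log2 changes above 0 and 5 below among 11 tested of 12, with a median of 0.10 and no call by edgeR or DESeq2. Fcnb, a ficolin made by early neutrophil stages, had 26.3, 85.2 and 292 CPM in anti-NK1.1 libraries, against 160, 208 and 147 CPM in isotype libraries. It was lowest in anti-NK1.1 1, like the azurophil genes, and highest in anti-NK1.1 3, like S100a8. Kit, the stem cell factor receptor of early progenitors, had 0.150, 3.27 and 0.598 CPM in anti-NK1.1 libraries, against 1.17, 3.88 and 6.45 CPM in isotype libraries. Its groups overlapped, with anti-NK1.1 2 above isotype 1. Csf3r, the receptor for granulocyte colony-stimulating factor, had a log2 change of -0.52 ± 0.21 (edgeR adjusted p = 0.727), with 261, 291 and 213 CPM in anti-NK1.1 libraries, against 349, 349 and 402 CPM in isotype libraries. Among 6 tested protease inhibitors of 12 listed, 4 log2 changes were below 0 and 2 above (median -0.09), no gene was called by either tool, and Slpi, a secreted inhibitor of elastase, had -0.60 ± 0.21 (edgeR adjusted p = 0.727).

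Log2 changes of later neutrophil genes were mostly below 0 and, at the median, smaller in size. Those of Itgb2l (-1.80) and Cybb (-1.50) were larger in size than those of Elane, Prtn3 and Ms4a3. All 14 specific and gelatinase granule genes had a log2 change below 0, with a median of -0.56, against a median of -1.44 for the 5 azurophil genes, and 13 of 14 mature neutrophil genes did so, with a median of -0.32. No gene of either list passed in edgeR, and DESeq2 called 1, Cybb, which encodes a subunit of the NADPH oxidase that microglia also express (edgeR log2 change -1.50 ± 0.41, edgeR adjusted p = 0.727). Ltf had 552, 1495 and 2775 CPM in anti-NK1.1 libraries, against 2752, 3066 and 3272 CPM in isotype libraries. S100a8 had 12255, 10784 and 48927 CPM in anti-NK1.1 libraries, against 37936, 26012 and 22990 CPM in isotype libraries, and its log2 change was -0.27 ± 0.52 (edgeR adjusted p = 0.905). Without anti-NK1.1 3, the medians of these lists were -1.48 and -1.21, and the log2 change of S100a8 was 0.04 without anti-NK1.1 1, 0.077 without anti-NK1.1 2 and -1.33 without anti-NK1.1 3. Since the 5 azurophil genes were picked on this contrast, the gap between their median and these was not tested.

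**Figure D4:**
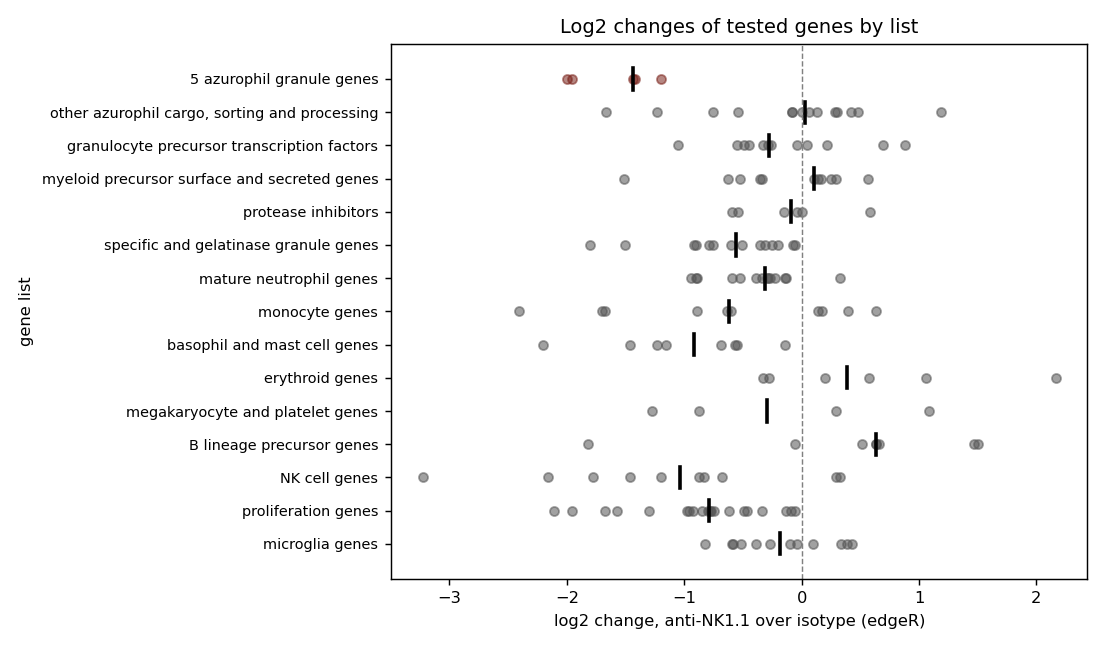
Log2 changes from edgeR, anti-NK1.1 over isotype, of the tested genes of each list, 1 dot per gene, with a black bar at the list's median. The 5 azurophil genes lie between -2.003 and -1.20, with medians of -0.56 for specific and gelatinase granule genes and -0.32 for mature neutrophil genes.

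Genes of other cell types were compared because Ctsg is also made by mast cells and Ms4a3 by basophils. Cpa3, a protease of mast cells and basophils, had 3.50, 2.86 and 3.75 CPM in anti-NK1.1 libraries, against 8.12, 11.0 and 8.75 CPM in isotype libraries, with no overlap. The IgE receptor subunit Fcer1a had 7.86, 0.759 and 7.77 CPM in anti-NK1.1 libraries, against 8.29, 11.8 and 4.31 CPM in isotype libraries. Its groups overlapped. Cma1, Tpsb2, Mcpt4 and Ms4a2 reached at most 1.69 CPM in anti-NK1.1 libraries, against 3.49 CPM in isotype libraries. In isotype 3 none of them exceeded 0.0523 CPM. Mcpt8, a protease of basophils, had 23.2, 17.3 and 40.7 CPM in anti-NK1.1 libraries, against 44.6, 51.3 and 34.5 CPM in isotype libraries. Prss34, another, had 45.9, 22.4 and 77.6 CPM in anti-NK1.1 libraries, against 109, 115 and 118 CPM in isotype libraries. Both were higher in anti-NK1.1 1 than in anti-NK1.1 2, the reverse of Ms4a3 and Ctsg. Of 12 basophil and mast cell genes 8 were tested, all with log2 changes below 0 (median -0.92) and none called by edgeR or DESeq2. The summed level of the list was 107 to 372 CPM in anti-NK1.1 libraries, against 297 to 336 CPM in isotype libraries. Without Hdc, which also stands in the mature neutrophil list, it was 84.9, 46.6 and 133 CPM in anti-NK1.1 libraries, against 180, 198 and 173 CPM in isotype libraries, and the groups did not overlap. Tpsab1 was at 0 throughout, and the part of these cells in the levels of Ctsg and Ms4a3 was not tested.

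Genes of dividing cells also had log2 changes below 0. All 20 genes of the proliferation list had log2 changes below 0, with a median of -0.79, and none passed in edgeR or DESeq2. Their summed level was 243, 343 and 693 CPM in anti-NK1.1 libraries 1 to 3, against 701, 724 and 620 CPM in isotype libraries 1 to 3, so anti-NK1.1 1 was again the lowest. Mcm7, a subunit of the replicative helicase, had a log2 change of -0.96 ± 0.32 (edgeR adjusted p = 0.727), and Top2a, a topoisomerase of dividing cells, -1.96 ± 0.66 (edgeR adjusted p = 0.727), or -3.02 without anti-NK1.1 2. Monocyte genes had 4 log2 changes above 0 and 6 below among 10 tested (median -0.62), with 0 called by edgeR and 2 by DESeq2, Fn1 and Ccr2, at -2.41 ± 0.38 and -1.68 ± 0.43 in edgeR. Their summed level was 1572 to 5923 CPM in anti-NK1.1 libraries, against 4495 to 5115 CPM in isotype libraries, and their median log2 change was -1.42 without anti-NK1.1 3. Most of that level was Chil3, which also stands in the specific and gelatinase granule list. Without Chil3 the sum was 705, 716 and 1838 CPM in anti-NK1.1 libraries, against 1770, 1451 and 1717 CPM in isotype libraries. The groups still overlapped, through anti-NK1.1 3. Of the 10 tested genes, 4 were lower in all 3 anti-NK1.1 libraries than in any isotype library, among them Fn1, Ccr2 and F13a1. That separation was found for 7.59% of all tested genes. Fn1, Ccr2 and F13a1 were named because their unadjusted p were the smallest of the list.

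Markers of other bone marrow cells were also counted. Summed levels of 10 megakaryocyte and platelet genes were 58.2 to 84.0 CPM in anti-NK1.1 libraries, against 50.5 to 66.0 CPM in isotype libraries. Gp9 made up most of this, and without it the sum was 2.22 to 11.9 CPM in anti-NK1.1 libraries, against 5.04 to 10.1 CPM in isotype libraries. No other gene of the list exceeded 4.62 CPM in an anti-NK1.1 library or 4.81 CPM in an isotype library. The B lineage list came to 84.3 to 131 CPM in anti-NK1.1 libraries, against 50.2 to 89.5 CPM in isotype libraries. Most of it was Cd79a and Cd79b, which mature B cells also express, and without them the sum was 12.9 to 22.2 CPM in anti-NK1.1 libraries, against 8.20 to 13.6 CPM in isotype libraries. The globins Hba-a1, Hba-a2, Hbb-bs and Hbb-bt were listed at 0 in all libraries. The erythroid list that holds them still summed to 169 to 246 CPM in anti-NK1.1 libraries, against 59.8 to 193 CPM in isotype libraries. Most of that was Car2. The B lineage list had 6 of 8 log2 changes above 0 (median 0.63), the opposite direction to the azurophil genes, and the erythroid list 4 of 6 (median 0.38), with no call in either by edgeR or DESeq2. Of 10 tested NK cell genes 8 had log2 changes below 0 (median -1.04, or -1.95 without anti-NK1.1 3) and none was called by edgeR or DESeq2. Nkg7, a granule gene of NK cells, had 13.1, 19.4 and 51.2 CPM in anti-NK1.1 libraries, against 66.6, 75.7 and 50.03 CPM in isotype libraries, so that anti-NK1.1 3 lay just above isotype 3. Microglia genes had 8 of 12 log2 changes below 0 (median -0.19), with none called by either tool.

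Genes beside the 5 on their chromosomes were compared next. Within 50 kb there were 25 other annotated genes in the table, of which 15 were tested, with log2 changes between -2.20 and 0.36 and a median of -0.33. None passed in edgeR, and 0 had an unadjusted p under 0.05. Cfd, which starts 2.64 kb beyond Elane, and Lpo, a peroxidase gene 2.02 kb from Mpo, were listed at 0 in all 6 libraries. Plppr3, whose annotated span overlaps the longer GENCODE span of Prtn3, averaged 16.6 CPM under anti-NK1.1, against 20.0 CPM under isotype, and reads of overlapping genes cannot be assigned with certainty because these kits do not mark strand. Ptbp1, 9.71 kb from Prtn3, averaged 118 CPM under anti-NK1.1, against 148 CPM under isotype.

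The genes with the profile most like that of the 5 were looked up over all 6 libraries. The measure was the root mean square distance, in log2 units, between a gene's log2(CPM + 1) profile, centred on its mean, and the mean profile of the 5 genes, over 13379 genes with a mean of at least 1 CPM. The 5 genes themselves lay 0.106 (Elane) to 0.431 (Mpo) from their mean, and the median over other genes was 1.94. Nearest was Mcm6, a helicase subunit of DNA replication, at 0.364, with 0, 11.9 and 22.9 CPM in anti-NK1.1 libraries, against 24.0, 53.9 and 33.0 CPM in isotype libraries. Prss57 followed at 0.369 and Prc1, a gene of the mitotic spindle midzone, at 0.522, with 0.0752, 5.96 and 9.88 CPM in anti-NK1.1 libraries, against 27.2, 17.3 and 26.3 CPM in isotype libraries.

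The others, in order of distance up to 0.793, were Cldn15, Xdh, Itgb2l, Ripor2, Stbd1, Aqp9, Nuf2, Sec24d, Mogat2, Mbnl3, Klf5 and Plxna4. Xdh, which encodes xanthine dehydrogenase, had 3.16, 17.5 and 27.5 CPM in anti-NK1.1 libraries, against 46.3, 62.3 and 63.6 CPM in isotype libraries. Itgb2l had 0, 4.76 and 5.58 CPM in anti-NK1.1 libraries, against 10.9, 12.8 and 12.4 CPM in isotype libraries. None of the 15 exceeded 3.16 CPM in anti-NK1.1 1, the lowest library for each of them, and 3 of them belong to one of the gene lists used here. In 8 of the 15 every anti-NK1.1 library was below every isotype one, a separation found for 7.59% of tested genes. By edgeR 0 were called and 2 had an unadjusted p under 0.05. The 15 were picked by likeness to the 5 genes over these same libraries. These counts therefore follow from that choice and are no test.

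**Figure D5:**
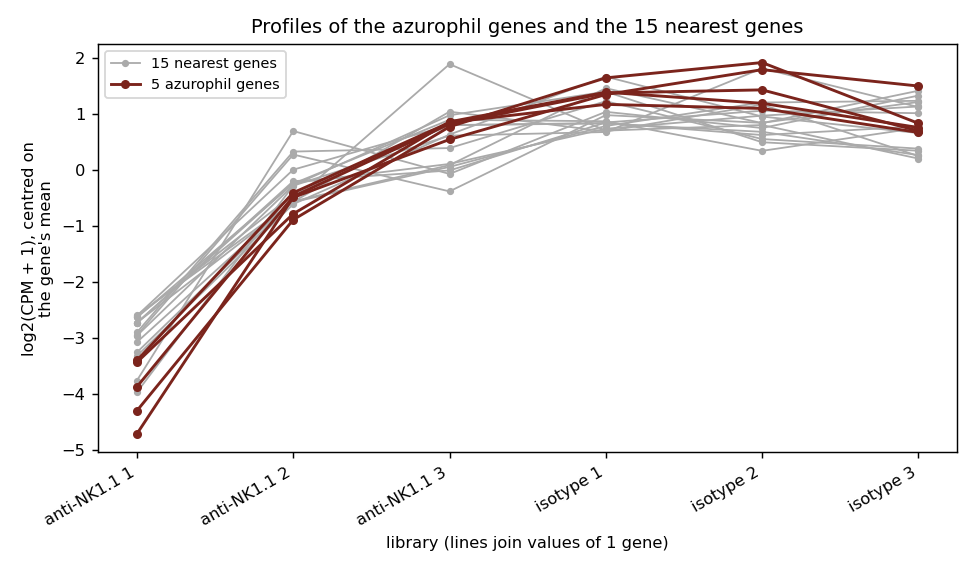
Centred log2(CPM + 1) profiles over the 6 libraries for the 5 azurophil genes (red) and the 15 nearest other genes (grey), with lines joining the values of 1 gene. Every one of these genes has its lowest value in anti-NK1.1 1, and the red lines differ most from each other in that library, from -4.70 for Mpo to -3.39 for Ms4a3.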

How the data were processed

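Per the labels' protocols, RNA of the sorted cells was isolated using Trizol-LS, amplified using SMART-seq v4, made into Nextera XT libraries and read on an Illumina NextSeq in single-end runs of 75 bp. Neither kit marks strand or adds molecular identifiers, so intervals cover counting error only. The submitters' processing notes name STAR 2.5.3a, mm10, bcl2fastq 2.20.0.422, Cufflinks 2.0, DESeq2 1.1 and FastQC 1.0.0. The sources used here name no counting program or annotation. The authors deposited a table that is named normalized but holds raw read counts per gene, judged from whole numbers, unequal totals and rows of unassigned reads (53.3% to 57.4% without a feature). Of its rows, 26 hold calendar dates and 2 hold totals, and these were left out.

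The 14520 genes passing filterByExpr were fitted with edgeR 4.0.16 in R 4.3.3 (quasi-likelihood F-test, two-sided, group only, TMM, Benjamini-Hochberg threshold 0.05), and with DESeq2 1.42.0 as an alternative. SE is the absolute log2 change over the square root of F. An exact permutation test of 3 against 3 cannot go below p = 0.1. P-values measure only the spread between these libraries, which may be technical. In a library 3 counts are 0.0831 to 0.112 CPM. Exonic lengths and spans came from GENCODE M21 on GRCm38, matched by symbol.

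The 5 genes and all lists were chosen with earlier results of these data known. Nameable were the 5, the lists of other azurophil, transcription factor and precursor surface genes, the 3 smallest unadjusted p of each other list, a fixed set with S100a8, S100a9, Ltf, Camp, Ngp, P2ry12 and Klrb1c, and the 15 nearest genes, without predicted loci. Lcn2, Olfm4, Hp, Hdc, Chil3, Cd79a, Gp9, the mast cell genes other than Cpa3, the globins apart from Hbb-bs and the chromosomal neighbours were named after their values were seen. Alternatives were other scaling, filters, a replicate term, a length correction and leaving out libraries. Sums of lists without shared or abundant genes were added after seeing the data.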

Additional observations from a re-analysis of the deposited data

How the results depend on the processing

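The log2 changes of the 5 azurophil genes were negative under all 14 alternatives. Since the 5 genes were picked on this contrast in these same libraries, their constant sign is no test. With DESeq2, 83 genes were called, and with other scaling factors, other filters, the length correction or the replicate block, 0. Leaving out 1 library gave 0 to 129 calls, the 129 without anti-NK1.1 2. The difference in summed azurophil share, -0.146 percentage points, was -0.211 with the 50 most abundant genes left out of the total, which shrinks the denominator, and -0.172 to -0.119 with 1 library left out. The ratio, 0.281 by share, was 0.307 by TMM-scaled CPM, 0.153 to 0.411 with 1 library left out, and 0.286 without anti-NK1.1 1 and 3, which was chosen after seeing the data. With 1 library left out, the log2 change of Fcnb ran from -1.62 to 0.133, that of Cebpe from -1.27 to 0.0522 and that of S100a8 from -1.33 to 0.0773. The highest came without anti-NK1.1 1 for Fcnb and Cebpe and without anti-NK1.1 2 for S100a8. Cebpe was also above 0, at 0.0072, without anti-NK1.1 2. The cause was not tested. The megakaryocyte median, -0.29, was 0.33 with a mean CPM of at least 5 and -1.33 without anti-NK1.1 3. Of the 15 nearest genes, 13 were shared with pseudocount 0.5 and all 15 with a mean CPM of at least 5. Same-numbered libraries did not deviate together (correlations over genes 0.062, -0.063 and -0.030), so the numbers were not read as a pairing; under the replicate block the log2 change of Mpo was -2.91. Depth limits values near 3 counts, such as Prss57 in anti-NK1.1 1.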
